A study of Mus musculus with 24 samples.

Results

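The major urinary proteins are small secreted lipocalins of the mouse, encoded by the *Mup* gene cluster on chromosome 4, and 5 of these genes (*Mup1*, *Mup3*, *Mup4*, *Mup19* and *Mup20*) are described here in blood RNA. They were selected on the measured values themselves, the log2 signal of each array across the groups and its difference from the albumin gene *Alb* on the same array, so their levels are descriptions and no test was run on them. They are 5 of 29742 genes with a probe on the array and 5 of 12 named *Mup* and a number. A probe was dropped when the scanner software marked its spot as dim or uneven in 25% or more of the arrays; the main probe of 5 of 5 genes passed, and 5 of their 7 probes did.

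Male mice make most urinary protein in liver cells, which release it into the blood, and the kidney passes it into urine, where it carries small scent molecules. Liver expression of most of the family depends on pulses of growth hormone acting through STAT5B and on androgen and thyroid hormone, and some genes are also expressed in glands of the head. *Mup20* encodes darcin, a protein of male urine to which females are attracted, and *Mup4* is known from nasal tissue as well as liver.

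Blood RNA from 24 male C57BL/6J mice was read on single-dye arrays, with 1 mouse per array. Unirradiated young mice and young mice given 4 Gy of x-rays were 2 months old, and unirradiated old mice and old mice given 4 Gy were 21 months old, with 6 mice in each of the 4 groups. Blood was taken by cardiac puncture, 24 h after exposure in the irradiated groups, into a solution that stabilizes RNA. The comparisons ask how radiation changes blood RNA at each age and how the ages differ.

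Levels are log2 signal minus the median of the array's 43020 spots that are not controls, so 0 is the median spot, and "well above background" is the scanner software's own call per spot. Array medians ran from 8.66 to 44.8 in signal, and 43.9% to 64.4% of spots were well above background. The number of arrays limits the precision. Young mice were on slides 1 to 3 and scanned on 1 day, old mice on slides 4 to 6 and scanned on another, so age, slide and scanning day cannot be told apart. Within each age, 1 slide (2 in young and 5 in old mice) held 2 mice of each dose.

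Some arrays stood apart. Irradiated old replicates 4 and 6 had an SD of log2 differences of 0.31 from each other, at least 1.22 from any other array, and the lowest median signals, 8.66 and 8.84. In 4 pairs of arrays within a group this SD was below the lowest among the unirradiated young mice (0.319): irradiated young 1 and 6 (0.315), irradiated young 2 and 5 (0.266), unirradiated old 1 and 6 (0.178) and irradiated old 4 and 6 (0.311). Repeat spots within an array had an SD of 0.0598 to 0.105. Values without irradiated old replicates 4 and 6, and with each similar pair counted as 1, are given for some results.

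The array reads these genes through 60-base probes, shown because probes of 1 gene did not always give the same picture. The late probes, toward the 3′ end of the transcripts, are shown as a stretch of 30 bases whose capitals mark a run of 13 bases that *Mup4*, *Mup19* and *Mup20* share, and the others lie in the coding part and are shown whole. On the array's positions (mm9) the probes lie on the minus strand of chromosome 4.

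Mup1, A_55_P1979904, transcript bases 459 to 518: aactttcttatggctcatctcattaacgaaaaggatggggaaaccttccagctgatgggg
Mup3, A_55_P1971237, transcript bases 549 to 608: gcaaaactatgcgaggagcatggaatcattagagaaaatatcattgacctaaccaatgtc
Mup4 early, A_55_P2007816, transcript bases 95 to 154: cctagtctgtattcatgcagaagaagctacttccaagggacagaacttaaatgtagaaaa
Mup20 early, A_55_P2051486, transcript bases 314 to 373: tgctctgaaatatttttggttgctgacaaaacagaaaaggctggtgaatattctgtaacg
Mup4 late, A_55_P2010093, transcript bases 669 to 728: gtgacaagTTCTGTGATCTGCtttccatcc
Mup19 late, A_55_P1974080, transcript bases 684 to 743: agtataaaTTCTGTGATCTGCattccatcc
Mup20 late, A_55_P2063654, transcript bases 688 to 747: gtaagaagTTCTGTGATCTGCtttccatcg

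The late probes of *Mup4* and *Mup20* share a run of 24 bases, and no 2 of the other pairs of probes share more than 16. The accessions that the array lists for the *Mup1* probe belong to 4 genes (*Mup1*, *Mup2*, *Mup19* and *Mup22*) and those for the *Mup19* probe to 3 (*Mup17*, *Mup19* and *Mup22*), so these probes cannot separate those genes. Of the 4 accessions of the *Mup19* probe and the 2 of the early *Mup4* probe, 1 each could not be matched to a gene, and the rest of the early *Mup4* list and the lists of the other 4 probes hold only the gene they are named for. The brighter probe, which is the late one for *Mup4* and *Mup20*, was taken as the main probe of a gene.

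*Mup1*, a common liver form, had a lowest, median and highest level of -2.50, 3.75 and 8.76 in unirradiated young mice, 0.05, 7.35 and 12.36 in irradiated young mice, -2.97, -2.64 and -1.84 in unirradiated old mice, and -2.82, 7.71 and 11.52 in irradiated old mice. It was well above background in 5, 6, 0 and 5 of 6 mice of these groups. The irradiated young mice fell apart into replicates 2, 4 and 5, which were high, and replicates 1, 3 and 6, which were low. Among irradiated old mice, replicates 2, 3 and 5 were high, 4 and 6 intermediate, and 1 at the level of the unirradiated old mice. Blood is a mixture of cells and of RNA from outside them, so fewer cells of a type and less RNA per cell cannot be told apart.

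*Mup3*, whose levels in the same order of groups were -2.34, 1.82 and 6.69, then -0.94, 5.20 and 10.65, then -2.52, -2.38 and -1.28, and then -1.19, 5.32 and 9.41, was well above background in 4, 4, 0 and 5 of 6 mice. The same mice were high and low as for *Mup1*. The lowest irradiated old mouse was above the highest unirradiated old mouse by a small margin, with neither well above background.

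*Mup4*, by its late probe, had levels of 3.51, 4.10 and 8.42 in unirradiated young, 3.44, 7.47 and 11.79 in irradiated young, -0.87, 0.18 and 0.68 in unirradiated old, and -0.17, 7.25 and 10.74 in irradiated old mice. This probe was well above background in 6, 6, 5 and 6 of 6 mice. Every young mouse, irradiated or not, lay above every unirradiated old mouse.

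*Mup19* was at 1.53, 4.91 and 9.98 in unirradiated young, 2.47, 8.41 and 13.54 in irradiated young, -2.32, -1.54 and -0.15 in unirradiated old, and -1.06, 8.94 and 12.69 in irradiated old mice. It was well above background in 6, 6, 1 and 5 of 6 mice. All 12 young mice lay above all 6 unirradiated old mice.

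*Mup20* had levels of 1.73, 3.10 and 7.32 in unirradiated young, 2.01, 6.70 and 11.15 in irradiated young, -2.80, -2.05 and -0.87 in unirradiated old, and -1.57, 6.50 and 10.06 in irradiated old mice. By its late probe it was well above background in 6, 6, 0 and 5 of 6 mice. As for *Mup4* and *Mup19*, no young mouse fell to the level of the unirradiated old ones.

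**Figure D1:**
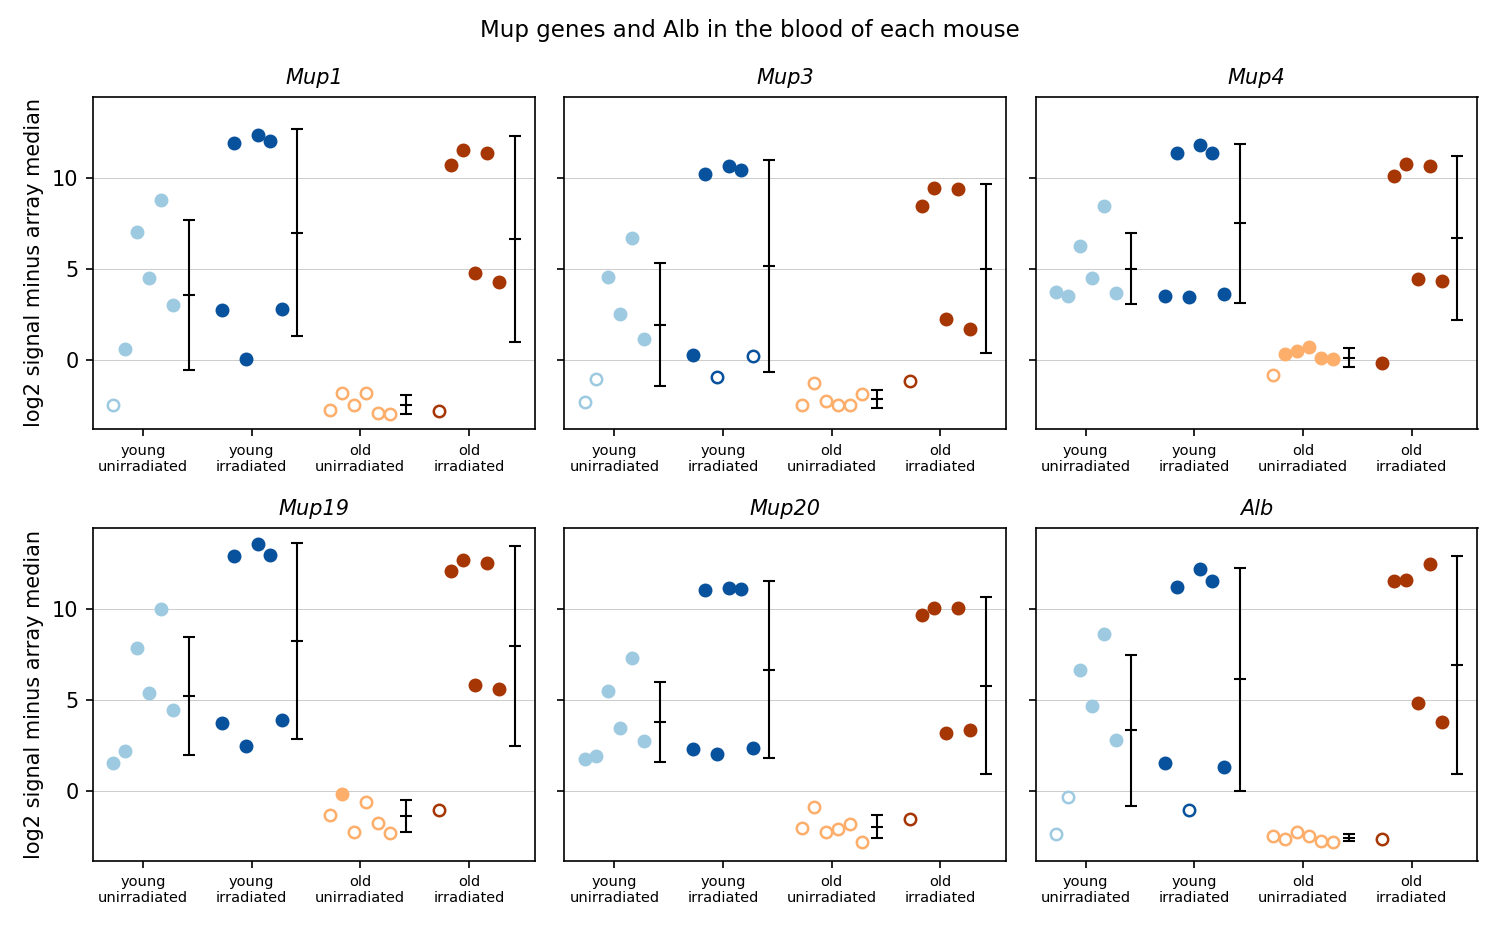
Log2 signal minus array median of each *Mup* gene and of *Alb* (vertical axis) in each of 6 mice per group (horizontal axis, replicates 1 to 6 from left to right); filled points are well above background, open points are not, and bars are mean and SD. In the irradiated groups 3 mice each sit at the top for all 6 genes, and the unirradiated old mice sit at the bottom.

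The order of the group means was the same for *Mup1*, *Mup3*, *Mup4*, *Mup19* and *Mup20*: irradiated young highest, irradiated old next, then unirradiated young, and unirradiated old lowest. Irradiated young and irradiated old neighbours did not differ beyond their spread, with means of 6.98 ± 5.69 and 6.63 ± 5.68 for *Mup1* (SD, n = 6 each). Neither did unirradiated young mice and either irradiated group, with 3.56 ± 4.14 for *Mup1* (SD, n = 6). The unirradiated old mice, at -2.48 ± 0.52 for *Mup1* (SD, n = 6), were a tight group near the floor of detection.

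In young mice, the mean of each of the 5 genes was higher after irradiation, by 2.49 (*Mup4*) to 3.42 (*Mup1*) on the log2 scale, with a median of 3.02. The groups overlapped for all 5, so 0 of 5 did not overlap, beside 15.3% of all genes on the array in this comparison. Replicates 2, 4 and 5 carried the difference: their means of the 5 genes were 11.48, 11.90 and 11.56, and those of replicates 1, 3 and 6 were 2.49, 1.41 and 2.57, inside the range of 0.42 to 8.24 of the unirradiated young mice. On the slide that held both doses the median difference was 1.36, and leaving out 1 mouse moved the median between 1.99 (without irradiated replicate 4) and 4.18 (without irradiated replicate 3).

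In old mice, the mean of each gene was higher after irradiation, by 6.56 (*Mup4*) to 9.35 (*Mup19*) on the log2 scale, with a median of 7.75. *Mup19* was well above background in 1 of 6 unirradiated mice only, so its difference rests mostly on signals at background: with values below the lowest signal well above background on the array raised to it (chosen after seeing the data), it was 8.63 and the median 6.69. Since no unirradiated old mouse was well above background for *Mup1*, *Mup3* or *Mup20*, these rises are bounds: at least 172-fold, 55.5-fold and 95.6-fold higher. The median with these 3 at their bounds was 6.58. Of the 5 genes, 1 (*Mup3*) did not overlap between the groups, beside 14.4% of all genes on the array. Irradiated replicate 1 stayed at a mean of -1.36 over the 5 genes, within the range of -1.99 to -0.77 of the unirradiated mice, whereas replicates 2, 3 and 5 were at 10.18, 10.88 and 10.80, and 4 and 6 at 4.06 and 3.84. The median was 9.02 without replicates 4 and 6, the arrays that stood apart, and 6.35 on the slide that held both doses. With normexp background correction, which models the local background, it was 4.91. *Mup1*, *Mup3* and *Mup20* then rose by 5.49, 3.85 and 4.59 on the log2 scale. These rises are smaller than the bounds above, so those bounds hold only for the background subtraction used there.

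Between unirradiated old and young mice, the mean of each gene was lower in the old mice, by a log2 difference of -4.06 (*Mup3*) to -6.63 (*Mup19*), with a median of -5.75 (-5.88 for *Mup19* and -4.71 for the median with such values raised). The bounds, as *Mup1*, *Mup3* and *Mup20* were at background in all unirradiated old mice, put *Mup1* at least 20.5-fold lower, *Mup3* at least 6.55-fold lower and *Mup20* at least 23.8-fold lower, and the median with these at their bounds was -4.58. The groups did not overlap for 3 of the 5, *Mup4*, *Mup19* and *Mup20*, all lower in old mice, beside 31.5% of all genes on the array and 7.62% lower in old mice. The genes were chosen with this contrast in view, so nothing is read from that count. With normexp correction the median was -2.44, and *Mup1*, *Mup3* and *Mup20* differed by -2.44, -1.21 and -2.02 on the log2 scale. These differences are smaller than the bounds, which hold only for the background subtraction used there. Age cannot be told apart from slide and scanning day.

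Between irradiated old and young mice, 0 of 5 genes did not overlap, beside 3.45% of all genes. The differences of the means were small against the spread within groups, between -0.88 (*Mup20*) and -0.14 (*Mup3*) on the log2 scale, with a median of -0.35. That median changed sign with the arrays used, to 0.71 without old replicates 4 and 6 and to 0.21 with each pair of very similar arrays counted as 1 sample. Without 1 young mouse it was -1.21, 0.63, -1.64, 0.72, 0.64 and -1.19 (replicates 1 to 6), and without 1 old mouse 1.10, -1.16, -1.33, 0.02, -1.30 and 0.12. The directions of the 5 genes in the other 3 comparisons held under each scaling, normexp correction and the authors' table.

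*Alb*, the gene of the main plasma protein and a hepatocyte product, separated the same mice. Its levels were -2.38, 3.73 and 8.59 in unirradiated young, -1.07, 6.38 and 12.17 in irradiated young, -2.81, -2.57 and -2.25 in unirradiated old, and -2.65, 8.20 and 12.44 in irradiated old mice, and it was well above background in 4, 5, 0 and 5 of 6 mice. The mice with high *Alb* were the mice with high *Mup*.

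**Figure D2:**
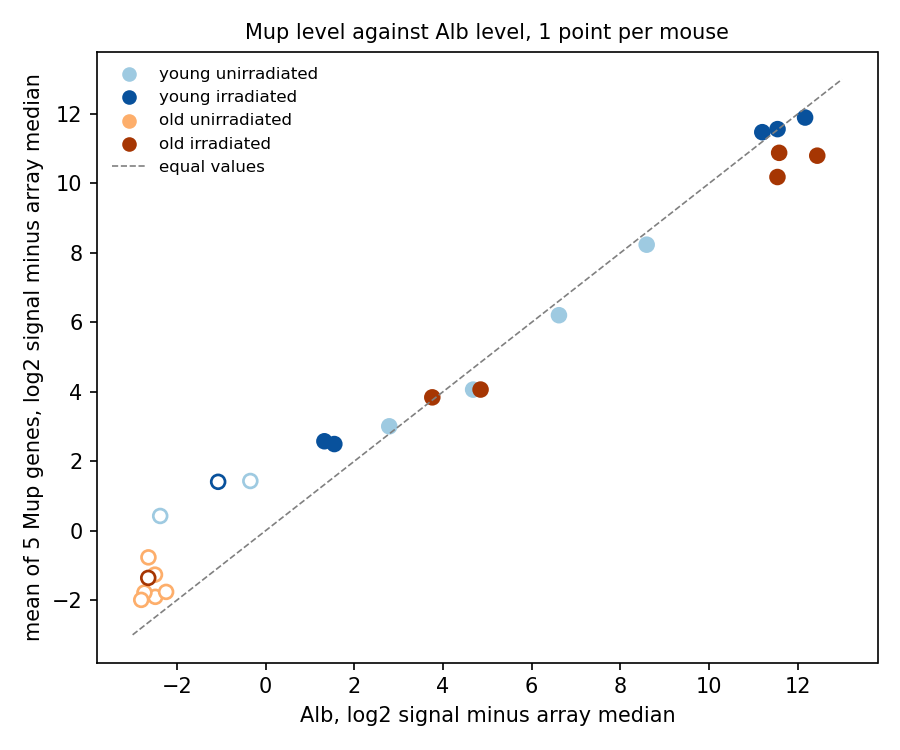
Mean level of the 5 *Mup* genes (vertical) against the level of *Alb* (horizontal), both log2 signal minus array median, 1 point per mouse, filled where *Alb* is well above background; the dashed line marks equal values. Above an *Alb* level of 2 the points lie near the line, and the young mice in which *Alb* is open keep a *Mup* mean above 0.

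Taken relative to *Alb* on the same array, which a scaling constant of the array cannot change, the large differences of the 5 genes became smaller in young mice. The median difference was 0.23 in young mice after irradiation (-0.30 to 0.63 over the genes), 0.67 on the slide with both doses, and -0.06 to 0.63 when 1 mouse was left out, but *Alb* was at background in 3 of these 12 mice (unirradiated replicates 1 and 2 and irradiated replicate 3). Over young mice with both genes well above background, looked at after the values had been seen, the group median of *Mup1* minus *Alb* went from 0.20 to 0.71, of *Mup3* from -2.0 to -1.21, of *Mup4* from -0.17 to 0.13, of *Mup19* from 1.3 to 1.72 and of *Mup20* from -1.19 to -0.16. All 5 were higher after irradiation, with a median of 0.52 (0.72 by group means), and 1 (*Mup3*) did not overlap, beside 0.319% of 15691 genes compared on this scale that were higher without overlap, whose median difference was -5.83. Of other genes, 30 of 36 plasma protein genes (median 0.52, 12 not overlapping and higher) and 13 of 20 hepatocyte enzyme genes (0.35, 4) were higher too. So were 0 of 5 male-liver genes (-2.94) and 1 of 4 female-liver genes (-2.76, 1 not overlapping and higher). A gene entered only if it and *Alb* were well above background in at least 3 mice of each group. In unirradiated old mice, where *Alb* was at background, 3 to 4 of 13 male-liver genes were still well above it, so that list is not read as liver RNA alone. Over all mice, the median difference of the 5 *Mup* genes relative to *Alb* was 0.14 between unirradiated old and young mice and -1.73 in old mice after irradiation. In unirradiated old mice *Alb* was well above background in 0 of 6 mice, so these 2 values compare with signals at background. With the mean of 38 other plasma protein genes in place of *Alb*, a reference chosen after seeing the data, they were -3.05 and 1.91, the opposite sign.

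Between irradiated old and young mice, each of the 5 genes was lower relative to *Alb* in old mice, by -0.94 (*Mup3*) to -1.68 (*Mup20*) with a median of -1.16. With the mean of other plasma protein genes in place of *Alb* it was -0.53, and without old replicates 4 and 6 it was -1.40. Over the mice in which both were well above background, *Mup1* minus *Alb* was 0.20, 0.71 and 1.46 (lowest, median, highest) in 5 irradiated young mice and -1.08, -0.11 and 0.51 in 5 irradiated old mice. *Mup3* minus *Alb* was -1.52, -1.21 and -1.03 in 4 young and -3.10, -2.64 and -2.08 in 5 old mice, which do not overlap. The values of *Mup1*, *Mup4*, *Mup19* and *Mup20* overlapped.

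This lower level relative to *Alb* was shared by other liver genes, which was looked at after the *Mup* values had been seen. Over mice in which a gene and *Alb* were both well above background (at least 3 in each group), the group median was lower in irradiated old than irradiated young mice for 5 of 5 *Mup* genes, with a median difference of -0.97. So it was for 37 of 38 other plasma protein genes (-0.61), 24 of 26 hepatocyte enzyme genes (-0.81), 9 of 11 genes higher in male than female liver (-1.15) and 2 of 3 genes higher in female liver (-0.94). By group means the counts were 5 of 5, 38 of 38, 26 of 26, 8 of 11 and 3 of 3. The groups did not overlap, with old mice lower, for 1 of 5, 8 of 38, 13 of 26, 3 of 11 and 1 of 3 genes, beside 2.22% of 16078 genes compared on this scale, whose median difference was 0.21. These are counts with no test, and they are not independent, because each takes off the same *Alb* value. Over all 6 mice per group, the mean of *Alb* itself was 0.80 higher in irradiated old mice. Its means were 6.92 ± 5.99 in old and 6.12 ± 6.12 in young mice (SD). Before *Alb* was taken off, the median difference was -0.35 for the 5 *Mup* genes and 0.23 for the 25 plasma protein genes tested.

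**Figure D3:**
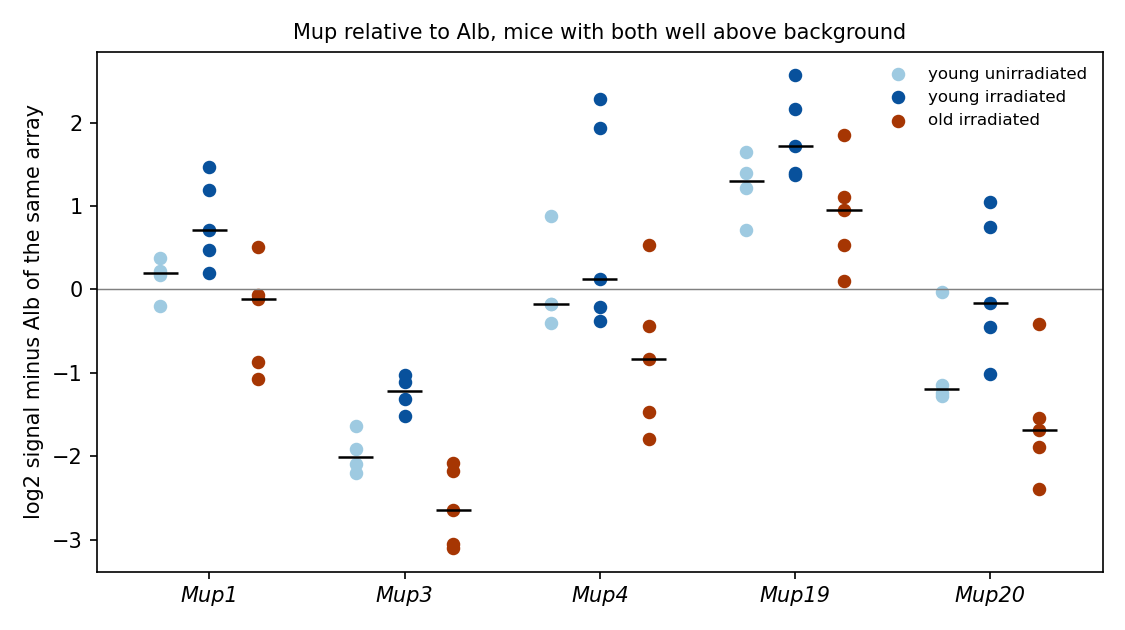
Log2 signal of each *Mup* gene minus that of *Alb* on the same array (vertical), for mice with both well above background; points are mice, black lines group medians, and unirradiated old mice are missing because *Alb* was not detected. Irradiated old medians lie below irradiated young medians for each gene; heights of different genes are not comparable, because probes differ in how well they bind.

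The early and late probes of *Mup4* did not follow the same pattern over the mice. In the 12 young mice the late *Mup4* probe was at 3.44 or higher, and in unirradiated young mice the early *Mup4* probe was at -4.28, -2.85 and -2.58 (lowest, median, highest), well above background in 0 of 6. In irradiated young mice the early probe reached -3.39, -1.38 and 1.42, well above background in replicates 2, 4 and 5. It was well above background in 0 of 6 mice in both old groups, where the late probe reached 10.74.

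The early *Mup20* probe was at -2.57, 1.71 and 6.81 in unirradiated young, -2.28, 5.58 and 10.51 in irradiated young, -3.04, -2.86 and -2.50 in unirradiated old, and -2.94, 5.80 and 9.75 in irradiated old mice. Its groups of unirradiated old and young mice overlapped, whereas those of the late *Mup20* probe did not. Differences of the means by the early and late *Mup20* probes had the same sign in each comparison. They were 3.33 and 2.88 in young mice and 7.83 and 7.75 in old mice after irradiation. Between unirradiated ages they were -4.61 and -5.75, and between irradiated ages -0.11 and -0.88. In unirradiated old mice both probes were at background. The 3 genes whose unirradiated old and young mice did not overlap are the 3 read by late probes, which share the 13-base run in capitals. With the mean of both probes in place of the brighter one, the median over the 5 genes was -5.18 in that comparison. Whether the late probes also bind other transcripts was not tested.

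The 5 genes rose and fell together over the 24 arrays, with Pearson correlations between 0.971 and 0.995 for their 10 pairs, given as a description because the arrays fall into clusters of high and low mice. Among 18550 other genes detected clearly on 6 or more arrays, the pattern most like their mean was that of a transcript the array annotates as a *Mup* pseudogene (r of 0.998), then *Serpina3k* (0.994), *Ahsg* (0.994), *Serpina1d* (0.993), an unnamed probe (0.993), *Serpina1c* (0.992), *Serpina1a* (0.992) and *Alb* (0.990). Over the 12 young mice the closest were 2 *Mup* pseudogene transcripts (0.999 and 0.997), *Kng1*, *Ahsg*, *Serpina3k*, *Vtn*, *Gc* and *Bhmt* (0.997 to 0.994). The named ones other than *Bhmt*, an enzyme of methionine metabolism, encode proteins that hepatocytes secrete.

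The other 7 numbered *Mup* genes on the array lay outside the selection. *Mup17* and *Mup18* had medians of 6.81 and 7.43 in irradiated young and 7.30 and 8.16 in irradiated old mice. Neither was detected in the unirradiated old mice (0 of 6). *Mup2* was well above background in all 24 mice, and its unirradiated old mice (0.31 to 1.14) lay below its unirradiated young mice (1.60 to 7.19). The highest levels of *Mup5*, *Mup6*, *Mup11* and *Mup21* were 10.50, 5.31, 3.73 and 8.58, all in irradiated young mice. Levels of different probes are not compared.

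Promoter sequences from RefSeq (GRCm38.p6) are held for 3 of the 5 genes, and are shown because members of the family that move together share parts of them. Each is the 150 bases before the start, on the minus strand, with capitals marking a run of 17 bases common to the 3 and the letters TATATAA.

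Mup4, chr4:59960668-59960817: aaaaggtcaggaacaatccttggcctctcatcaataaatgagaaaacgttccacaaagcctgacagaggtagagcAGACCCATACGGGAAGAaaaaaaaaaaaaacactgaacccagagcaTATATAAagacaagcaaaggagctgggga
Mup19, chr4:61782225-61782374: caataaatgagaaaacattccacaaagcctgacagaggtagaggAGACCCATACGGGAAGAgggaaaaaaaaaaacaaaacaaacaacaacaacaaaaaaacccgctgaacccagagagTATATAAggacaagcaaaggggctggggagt
Mup3, chr4:62087318-62087467: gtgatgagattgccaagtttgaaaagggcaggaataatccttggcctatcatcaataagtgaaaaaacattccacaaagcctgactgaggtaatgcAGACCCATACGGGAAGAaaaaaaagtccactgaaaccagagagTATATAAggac

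In all, 5 motifs were searched on both strands of the 250 bases before each start, in the 14 *Mup* promoters of the table and in all 32851. The 4 searched first were TATAAA (2 of 14, 12.4% of all promoters), TTCNNNGAA, the letters of a STAT5 site (0 of 14, 7.02%), ATTGCGCAA (0 of 14, 0.0487%) and TGTTCT (2 of 14, 16.1%). TATATAA was added after the sequences had been read, and was in 11 of 14 *Mup* promoters and 3.04% of all, so its count is a description of what was seen. A match is not a site, and no match says only that the letters are absent from this window.

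Genes of liver cells other than *Mup* were high in the same mice. Of 39 plasma protein genes on the array (40 in the list), 13 to 39 were well above background in unirradiated young, 16 to 39 in irradiated young, 8 to 12 in unirradiated old and 14 to 39 in irradiated old mice. Their summed signal, with the array median as 1, was 361 to 6610, 765 to 91681, 661 to 2160 and 872 to 52064 in these groups. Signals of different probes do not rank transcripts by amount, so only the brightest probe is named. It was *Serpina1a*, for a protease inhibitor, in irradiated young replicates 2, 4 and 5 and irradiated old replicates 2, 3 and 5, *Serpina1c* in unirradiated young replicates 3 and 5, *Trf*, for transferrin, in unirradiated young replicate 4, and *Hp*, for the hemoglobin carrier haptoglobin, in the other 15 mice. None was at background in all arrays. *Hp* was well above background in all 24 mice, also where *Alb* was at background, so sums in which it was brightest are not read as liver RNA. Which cells gave the *Hp* signal was not tested.

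Of 28 hepatocyte enzyme genes, 4 to 26 were well above background in unirradiated young, 6 to 28 in irradiated young, 4 to 6 in unirradiated old and 7 to 28 in irradiated old mice, with summed signals of 50.9 to 690.3, 72.3 to 10776, 31.1 to 47.4 and 48.2 to 4973. The brightest was *Ass1*, of the urea cycle, except for *Fabp1*, *Bhmt* or *Cyp2e1* in unirradiated young replicate 5, irradiated young replicates 2, 4 and 5 and irradiated old replicates 2 to 6. Markers of blood cells were well above background for 16 of 16 genes in all mice, *Alas2* of heme synthesis brightest, with sums of 20996 to 116719. The part of liver RNA or cells in the *Mup* levels was not tested.

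**Figure D4:**
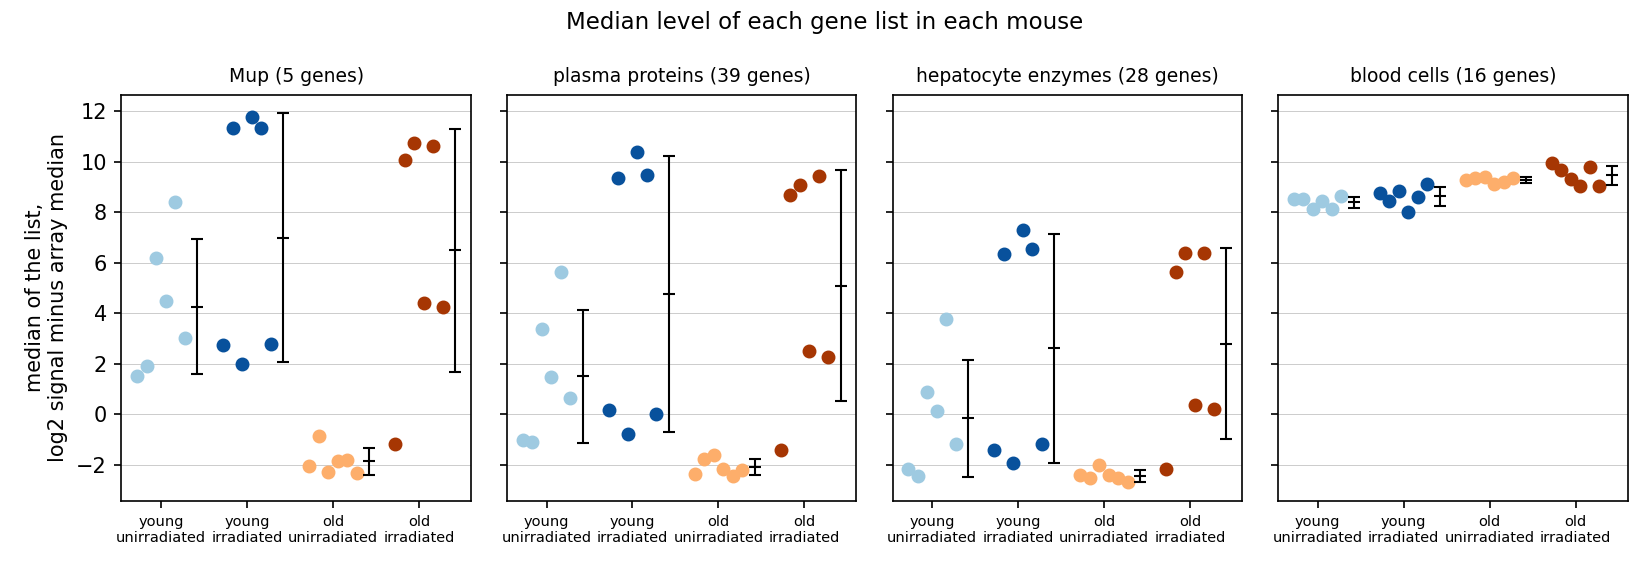
Median level over the genes of each list (vertical, log2 signal minus array median) in each of 6 mice per group; bars are mean and SD. The *Mup*, plasma protein and hepatocyte enzyme lists are high in the same mice, and the blood cell list lies between 8 and 10 in all mice.

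Marker lists named for other cell types of liver did not follow *Mup* in every mouse. Of 7 Kupffer cell markers, all on the array, summed signals were 26.8 to 313, 581 to 2226, 8.09 to 151 and 14.5 to 1529, with *Cd5l* or *C1qb* brightest except in 1 mouse with *Marco*. In irradiated young replicates 1, 3 and 6, which had low *Mup*, they were 581, 1125 and 642, above all unirradiated young mice. The 6 markers of liver sinusoid endothelium on the array summed to 20.4 to 30.5, 59.1 to 79.8, 15.4 to 26.0 and 77.2 to 171, with *Clec4g* the brightest in every mouse. Their part in the *Mup* levels was not tested.

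Markers of other tissues, in the order unirradiated young, irradiated young, unirradiated old and irradiated old, are given as summed signals, with no test. Salivary and lacrimal markers (7 on the array), from glands that express *Mup* genes, summed to 2.29 to 5.71, 2.71 to 45.9, 1.61 to 2.56 and 2.11 to 40.3, and were at 21.4, 45.9 and 22.5 in irradiated young replicates 2, 4 and 5, which had high *Mup*, and 2.71, 2.96 and 3.21 in replicates 1, 3 and 6. *Amy1*, which liver also expresses, was the brightest in the 6 highest of these sums. Without it, the other 6 genes summed to 1.98 to 3.20, 1.71 to 3.08, 1.32 to 2.35 and 1.51 to 5.50. This sum was looked at after the values had been seen. It was 1.71, 3.08 and 1.89 in irradiated young replicates 2, 4 and 5, and 2.61, 2.81 and 2.90 in 1, 3 and 6. In irradiated old mice it was 1.62, 1.96 and 1.55 in replicates 2, 3 and 5, 5.19 and 5.50 in 4 and 6, and 1.51 in 1. *Pip*, *Prol1* and *Smr3a* were at background in all arrays, so this sum holds little signal and nothing is read from it. Heart muscle (9 genes) summed to 3.03 to 6.47, 5.10 to 11.8, 4.01 to 8.40 and 5.75 to 45.0, highest in irradiated old replicate 3, with *Myl2*, *Myh6* or *Nppa* the brightest and *Myl7* at background. Bile duct (6 genes) summed to 1.03 to 2.01, 2.44 to 11.5, 1.29 to 3.22 and 2.18 to 6.42, with *Spp1* the brightest in the highest mouse and *Sox9* at background.

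Skeletal muscle (8 genes) was at most 24.3, with *Myh1*, *Myh4* and *Myl1* at background. Lung epithelium was 82.9 in irradiated young replicate 4, with *Sftpc* the brightest, and at most 16.2 in other mice. Skin was at most 134 (*Trp63* brightest, *Dsg1a* at background), in an unirradiated old mouse, and kidney tubule 271 and 439 in irradiated old replicates 4 and 6 and at most 64.4 in other mice, with *Aqp2* the brightest and *Umod* and *Slc12a1* at background. The part of these tissues in the *Mup* levels was not tested.

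Across all genes tested with limma, 35.8% (6252 of 17472) were called in young mice after irradiation, 25% in old mice, 63.8% between unirradiated old and young mice and 2.00% between irradiated old and young mice. By direction, 14.4% were higher and 21.4% lower in young mice after irradiation, 7.6% and 17.4% in old mice, 48.2% and 15.5% between unirradiated ages and 1.4% and 0.601% between irradiated ages, and no list was tested against these shares. The call needs p below 0.005 and an adjusted p below 0.05. With normexp correction 835, 8, 0 and 35 of 11776 genes were called in these comparisons (956 at an unadjusted p under 0.05 in the one with 0), and with scaling to the 75th percentile 5599 of 14813 between unirradiated ages. Without irradiated old replicates 4 and 6, 6058 genes were called in old mice. Between ages, irradiated or not, lower calls outnumbered higher ones with each other scaling and the authors' table. Unirradiated ages had 1562 higher and 4037 lower with the 75th percentile, 2406 and 3258 with quantile and 1100 and 4230 with common-probe scaling. In old mice these gave 1813 and 1886, 1383 and 2368, and 1953 and 1639. The authors' table gave 763 and 3685 between unirradiated ages and 1478 and 1367 in old mice. Normexp gave 786 and 49 in young mice. The median log2 difference of all genes was -0.20, -0.25, 0.63 and 0.20 in young mice, old mice, unirradiated ages and irradiated ages. With scaling to the 75th percentile it was -0.02 between unirradiated ages. List medians below are to be read beside these values. The interaction of age and radiation called 0% (0 of 17472 by limma, 4116 at an unadjusted p under 0.05), but 1043 genes without irradiated old replicate 3, and 1, 2, 5, 7, 7 and 5 without irradiated young replicate 1, unirradiated old replicates 2 and 4 and irradiated old replicates 1, 2 and 5.

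Plasma protein genes, of which 25 passed the filters, were called higher in old mice after irradiation for 19 of 25, with a median of 5.98 (5.23 with 12 genes at their bounds; 25 of 25 and 7.19 without replicates 4 and 6), and for 1 of 25, *Hp*, in young mice, with a median of 2.96. Of all genes 7.6% were called higher in old and 14.4% in young mice after irradiation. The plasma protein count in young mice was 2 without unirradiated replicate 5 or irradiated replicates 3 or 6 and 3 without irradiated replicate 1. *Serpina1e*, of the same inhibitor family as *Serpina1a*, rose by 5.91 (SE 1.33, limma adjusted p = 0.00527) in old mice and differed by 2.56 (SE 1.61, limma adjusted p = 0.213) in young mice. Between unirradiated old and young mice 13 of 25 were called lower and 1, *Hp*, higher, with a median of -2.41 (-1.93 with bounds). Of all genes 63.8% were called, 15.5% lower. With 75th percentile scaling 15 of 25 were lower, beside 4037 of 14813 genes lower and 1562 higher. *Hp* was higher by 2.45 (SE 0.31, limma adjusted p = 2.52e-05) in old mice, whose 6 mice lay above the 6 young ones, opposite to the direction of the 5 *Mup* genes. Since *Hp* was well above background also in mice with *Alb* at background, its calls at either age are not read as liver RNA. Between irradiated old and young mice 0 of 25 were called. With normexp correction no gene of this list was called in old mice after irradiation or between unirradiated ages, where the medians were 3.55 and -0.59, and the interaction called 0 of 25, so the responses were not shown to differ between ages.

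Hepatocyte enzyme genes were called higher in old mice after irradiation for 7 of 10 that passed, with a median of 4.38 (4.07 with 4 at their bounds; 10 of 10 and 5.22 without replicates 4 and 6), and for 2 of 10 in young mice, with a median of 2.55. *Tat*, which breaks down tyrosine, rose by 3.04 (SE 0.38, limma adjusted p = 0.000319) in old mice, with no overlap of the groups, and by 1.85 (SE 0.52, limma adjusted p = 0.0105) in young mice, and *Cyp2e1* by 5.29 (SE 1.01, limma adjusted p = 0.00227) in old mice. Of all genes 7.6% were called higher in old and 14.4% in young mice after irradiation. Between unirradiated old and young mice 6 of 10 were called lower, with a median of -2.26 (-1.95 with bounds), and between irradiated ages 0 of 10. Of all genes 63.8% were called between unirradiated ages, 15.5% lower. With 75th percentile scaling 7 of 10 were lower there, beside 4037 of 14813 genes lower and 1562 higher. The count in young mice was 0 without any 1 of unirradiated replicates 1, 2, 3 and 6 or irradiated replicates 2, 4 and 5, and 1 without unirradiated replicate 4. With normexp correction 0 of 10 were called in old mice (median 2.83) and 0 of 10 between unirradiated ages (-0.59).

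Genes with more RNA in male than female liver, as *Mup* genes have, were called higher for 4 of 6 in old mice after irradiation, among them *Cyp2d9* (4.19, SE 0.94, limma adjusted p = 0.00506), and for 1 of 6 in young mice, which was 0 without any 1 of unirradiated replicates 1, 2, 4 and 6 or irradiated replicates 2, 4 and 5. Of all genes 7.6% were called higher in old and 14.4% in young mice after irradiation. Between unirradiated old and young mice 2 of 6 were called lower and 1, *Gstp1*, higher, beside 63.8% of all genes called, 15.5% lower. No gene of the list was higher with the 75th percentile (4 lower), quantile (2 lower) and common-probe (4 lower) scalings and the authors' table (2 lower). With the 75th percentile, 4037 of 14813 genes were lower and 1562 higher. With normexp correction 0 of 5 were called in old mice (median 1.45, beside 2.62 without it) and 0 of 5 between unirradiated ages (-0.19, beside -1.07). *Gstp1*, a detoxifying enzyme with a level of 4.80 or higher in all mice, differed by 0.78 (SE 0.17, limma adjusted p = 0.00124), beside 0.63 for the median of all genes. Of 4 female-liver genes that passed, 2 were called higher in old mice after irradiation, 0 in young mice, 2 lower between unirradiated ages (beside the same 15.5% of all genes) and 1 higher between irradiated ages (0 without any 1 of the irradiated mice except old replicate 6), and 7 of 15 on the array were at background in all mice. Between irradiated ages 0 of 6 male-liver genes were called.

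Of 14 genes for hormone receptors, STAT5 signalling and liver transcription factors that control *Mup* genes, 4 were called higher in young and 2 in old mice after irradiation (1 without any 1 of unirradiated old replicates 3, 4 and 5 or irradiated old replicates 2 and 4), beside 14.4% and 7.6% of all genes called higher, and 0 between irradiated ages. Between unirradiated old and young mice 7 were called higher and 2 lower, but this direction rests on the scaling: with the 75th percentile it was 1 higher and 3 lower of 12. Of all genes 48.2% were called higher and 15.5% lower there, and 1562 higher and 4037 lower of 14813 with the 75th percentile. With normexp correction the counts were 1 of 11 (young mice), 0 of 11 (old mice) and 0 of 11 (unirradiated ages). *Cebpb*, a transcription factor of liver and myeloid cells, was higher by 1.23 (SE 0.23, limma adjusted p = 0.000992) in irradiated young mice, with no overlap of the groups. *Stat5b*, which carries the growth hormone signal in liver, was well above background in all mice and differed by 0.45 (SE 0.19, limma adjusted p = 0.0741) in young and -0.04 (SE 0.43, limma adjusted p = 0.949) in old mice after irradiation. Blood cells express some of these genes too. Of the 15 on the array, 9 to 15 were well above background in each mouse, and 9 to 11 in unirradiated old mice, where *Alb* was at background.

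Lipocalins other than *Mup* were called higher for 1 of 9 in young mice, *Lcn2*, and 2 of 9 in old mice after irradiation (4 without irradiated replicate 1). Of all genes 14.4% and 7.6% were called higher in these comparisons. Between irradiated ages 0 were called, and between unirradiated old and young mice 1 was higher and 5 lower. Of all genes 48.2% were called higher and 15.5% lower between unirradiated ages (63.8% in all). With the 75th percentile 1 of 9 was higher and 5 lower, beside 1562 of 14813 genes higher and 4037 lower. With normexp correction 0 of 7 were called in old mice and 0 of 7 between unirradiated ages. The list shares 4 of its 20 genes with the plasma proteins. *Lcn2*, which neutrophils make and which binds bacterial iron carriers, rose by 1.77 (SE 0.26, limma adjusted p = 0.000151) in irradiated young mice, with no overlap, and was higher by 1.99 (SE 0.38, limma adjusted p = 0.000412) in unirradiated old than young mice, a call that the authors' table did not give (0 higher and 5 lower of 9). *Ambp*, a plasma protein as well, was higher by 6.50 (SE 1.32, limma adjusted p = 0.00315) in irradiated than unirradiated old mice. *Lcn12* was lower by a log2 difference of -2.04 (SE 0.19, limma adjusted p = 2.58e-06) in unirradiated old mice.

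The count between irradiated ages, 350 genes, rested on single arrays. It was between 33 and 134 without any 1 of irradiated young replicates 1 to 6 or irradiated old replicates 1, 2 and 5, and 4976 without irradiated old replicates 4 and 6 together, whereas the *Mup* groups overlapped in this comparison.

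The limits of these values are as follows. The 5 *Mup* genes were picked by their levels in these mice, and no protein, urine or liver was measured. Unirradiated old mice were at background for most *Mup* probes, so folds against them are bounds. These bounds hold only for the background subtraction used, and the differences with normexp correction did not reach them. In young mice after irradiation and between irradiated ages, the spread between mice was larger than the differences of the *Mup* medians. Probes for *Mup1* and *Mup19* cannot separate close relatives. The early and late *Mup4* probes followed different patterns over the mice, and the *Mup20* probes differed in whether unirradiated ages overlapped. How blood was drawn from each mouse, and whether RNA of liver entered it, cannot be read from the arrays, and was not tested.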

How the data were processed

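The intensity values deposited per array were made by the authors with Agilent Feature Extraction 12.0.2 (submitters' processing notes; 12.0.2.2 in the file headers), which subtracted background and did not scale arrays. The log2 table deposited by the authors is a filtered, normalized version and was used as an alternative; it holds no *Alb*. From the intensities, spots marked non-uniform were removed, and the array median over non-control spots was taken off on the log2 scale. Of 39429 probes, 24130 passed the background filter, giving 18737 genes by the brightest probe, of which 17472 lay 1.5-fold or more off their own median on 20% or more of the arrays. Groups were compared by limma's moderated test, two-sided, on 12 arrays, and the interaction on 24. *Mup* genes were described on the unfiltered values.

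The members and lists were chosen with earlier results of these data known. Genes named are the members, other *Mup* genes, *Alb*, up to 5 genes per list with the highest mean signal and the 8 most similar genes; *Serpina1a*, *Fabp1*, *Cd5l*, *C1qb*, *Marco*, *Clec4g*, *Alas2*, *Serpina1c*, *Trp63*, *Aqp2*, *Amy1*, *Sftpc*, *Myl2*, *Myh6*, *Nppa*, *Spp1* and genes at background were named as the brightest or absent of a list after their values were seen. Alternatives were 75th percentile, quantile and common-probe scaling, normexp (offset 50), the deposited table, other filters, all probes of a gene, replicate number as a block, slide as a random block, within-slide values and leaving out each array. Chosen after seeing the data were leaving out irradiated old replicates 4 and 6, plasma proteins in place of *Alb*, levels relative to *Alb* over mice with both genes detected, raising *Mup* values at background to each array's floor, the salivary and lacrimal sum without *Amy1*, and counting very similar arrays as 1; the rule for similarity was itself changed once, from a wider one that took 9 pairs to the present one with 4. The test code was tested on simulated data, made by adding changes to the residuals of these arrays. Tools were R 4.3.3, limma 3.58.1, the R package data.table (version 1.17.8), Python 3.11.15, pandas 2.3.3, NumPy 2.4.6 and Matplotlib 3.10.9.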

Additional observations from a re-analysis of the deposited data

Results flagged for a closer look

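A mouse lay far from the other 5 of its group in 5 of 60 sets of values for the *Mup* probes and *Alb*, by the ratio of its gap to the group's range (above the 95% critical value for 6 samples), where chance gives about 1 in 20. *Mup3* minus *Alb* was 0.13 in irradiated young replicate 3 (next highest -1.03) and 1.46 in irradiated old replicate 1 (next -2.08), both mice without *Alb* well above background. *Mup4* minus *Alb* was 1.62 in unirradiated old replicate 1 (next lowest 2.71). The early *Mup4* probe was at -2.47 in unirradiated old replicate 3 (next highest -2.92), and the early *Mup20* probe minus *Alb* was -0.19 in unirradiated young replicate 1 (next -1.41), where *Alb* was at background.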

How the results depend on the processing

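*Mup* directions in young and old mice after irradiation and between unirradiated ages held under each scaling, normexp correction, the authors' table and each array left out; the medians without 1 array were 1.99 to 4.18, 6.90 to 9.23 and -6.16 to -4.99. Between irradiated ages they were -1.64 to 1.10. For *Mup* minus *Alb* these ranges were -0.06 to 0.63, -2.18 to -1.49, -0.19 to 0.87 and -1.62 to -1.0. With normexp the *Mup* median between unirradiated ages was -2.44 and *Mup* minus *Alb* in irradiated old mice -0.66. With other plasma protein genes in place of *Alb* (chosen after seeing the data) *Mup* minus reference was 1.91 in old mice after irradiation and -3.05 between unirradiated ages, opposite in sign. In unirradiated old mice *Alb* was at background, and the cause of the change of sign was not tested. The authors' table has no *Alb*, so it gave no such value.

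Counts of all genes called in young mice, old mice, unirradiated ages and irradiated ages were 835, 8, 0 and 35 with normexp and 3748, 2845, 4448 and 44 with the authors' table. Between unirradiated ages they were 5599 with 75th percentile scaling, 5664 with quantile normalization and 5330 with common probes. Between irradiated ages they were 114, 170 and 193 with these, and 121 without the dim-probe and 1.5-fold filters, dropped together. There, 2 were called with replicate number as a block, 7 with similar arrays as 1 and 4976 without the 2 arrays that stood apart. With similar arrays as 1 the count in old mice was 2843. The interaction called 8, 7 and 8 with the 3 scalings, 4 with a stricter filter and 26 without the arrays that stood apart. Without 1 array the count between irradiated ages was 33 to 504 and the interaction 0 to 1043. The cause was not tested.

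Of the gene lists, with normexp plasma proteins called 2 (young mice), 0 (old mice) and 0 (unirradiated ages); hepatocyte enzymes 1, 0 and 0; male-liver genes 0, 0 and 0; regulators 1, 0 and 0; female-liver genes and other lipocalins 0 in old mice and 0 between unirradiated ages. In young mice with slide as a random block the counts were 5 (plasma), 4 (enzymes), 2 (male), 2 (female) and 8 (regulators), but the estimated correlation within slides was -0.193 and only 1 slide held both doses, so dose and slide are nearly confounded and these calls are not read as stronger evidence. With replicate number as a block young mice called 2 (plasma) and 1 (female). With the authors' table enzymes in young mice called 1, male-liver genes in young mice 0, female-liver genes in old mice 0 and regulators between unirradiated ages 4. Regulators there called 4 with 75th percentile scaling, 3 with quantile normalization and 4 with common probes. Without the dim-probe and 1.5-fold filters, dropped together, more genes were tested. Old mice then called 30 of 39 (plasma), 20 of 28 (enzymes) and 4 of 20 (lipocalins), beside 19 of 25, 7 of 10 and 2 of 9. Young mice called 4 of 28 (enzymes), beside 2 of 10. With the stricter filter, young mice called 2 (plasma) and 0 (male), old mice 2 (male), 0 (female), 1 (regulators) and 1 (lipocalins), unirradiated ages 1 (female) and irradiated ages 1 (regulators). With similar arrays as 1, enzymes in young mice called 1 and regulators in old mice 1. The 1 female-liver gene between irradiated ages was 0 with 75th percentile scaling, quantile normalization, common probes, normexp and the authors' table. The count was also 0 without the filters, with the stricter filter, with the replicate block and with similar arrays as 1. Without the arrays that stood apart, female-liver genes between irradiated ages called 2, regulators 5 and lipocalins 3, and lipocalins in old mice 4. Without 1 array, young mice called 1 to 3 (plasma), 0 to 3 (enzymes), 0 to 1 (male) and 0 to 1 (female); irradiated ages 0 to 1 (female) and 0 to 1 (regulators); old mice 1 to 3 (regulators) and 2 to 4 (lipocalins); and the interaction 0 to 1 (regulators). The cause was not tested.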
